A study of Mus musculus with 6 samples.

Results

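Interleukins are the secreted messengers by which white blood cells, and many tissue cells, address one another. Most act through receptors of 2 or 3 chains, in which 1 chain binds the ligand and a partner that several cytokines share passes the signal on. The gp130 family (IL-6, IL-11 and IL-27) shares the chain Il6st, the IL-2, IL-4, IL-7, IL-15 and IL-21 receptors share Il2rg, and the IL-3 and IL-5 receptors share Csf2rb. These chains start Janus kinases and STAT factors, whereas the IL-1 and IL-17 receptors start the NF-kappa-B pathway through adaptor proteins. In the heart the gp130 cytokines are known to act on cardiomyocytes and fibroblasts, and Il1rl1, the receptor of IL-33, is known as a marker of cardiac strain.

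Expression of these genes was compared between sham and tail-suspended mouse hearts. Members were all array probes that were not controls and whose gene name began with Il followed by a digit. There were 103 such probes for 83 genes, of 36163 gene names on the array, and each gene was read from the probe with the highest mean signal over the 6 arrays. The name rule also took in Il4i1, an enzyme induced by IL-4, and it left out chains with other names, such as Csf2rb, Ebi3 and Osmr, which were described separately. By role, 38 members were ligands, 38 were receptor chains, 6 were inhibitors or decoy receptors and 1 was an enzyme.

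All mice were male C57BL/6. The sham group was 3 mice kept unsuspended in the same room on the same feed, and the tail-suspension group was 3 mice held by the tail for 28 days, a model of weightlessness in which the hindlimbs bear no load. By the labels the mice were 10 weeks old at the start, while the age field reads 11 weeks. Total RNA of cardiac muscle from each mouse was labelled in 1 colour and hybridised to an Agilent mouse array. A single slide, scanned once, carried all 6 arrays. Its first row held the 3 sham arrays with tail-suspension replicate 1, and its second row held the 2 remaining tail-suspension arrays. Levels are log2 processed intensities after subtraction of the array's own 75th percentile, so a level of 0 equals that percentile, and levels of different probes are not comparable. RNA came from whole tissue, so fewer cells of a type and less RNA per cell cannot be told apart.

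The 7 cardiomyocyte markers (Myh6, Tnnt2, Tnni3, Actc1, Ryr2, Pln and Myl2) were well above background on all 6 arrays, and Actc1 alone of them was called, as lower. Their summed level, as linear ratios to the 75th percentile, was 3658 to 3965 in sham and 3351 to 3476 in tail-suspended mouse hearts. The 4 general leukocyte markers summed to between 4.27 and 5.67 in sham and between 4.79 and 5.73 in tail-suspension, and of the 4 only Ptprc, the gene of CD45, was called, with a log2 fold change of 0.47. Cd52, Coro1a and Laptm5 had log2 fold changes of 0.29, 0.0041 and -0.24. Cd3g, Cd8a and Klrb1c, 3 of the 7 T and NK cell markers, were well above background on no array. The summed level of the 4 endothelial markers was 32.8 to 35.5 in sham and 24.9 to 27.7 in tail-suspension. Kdr alone of them was called, as lower, with a log2 fold change of -0.55. Pecam1, Cdh5 and Tek had log2 fold changes of 0.19, -0.295 and -0.22. Kdr and Cdh5 were the brightest and weigh most in the sum. The summed level of the 5 erythroid markers was 428 to 689 in sham and 106 to 344 in tail-suspension, and none of the 4 tested was called. None of the tested fibroblast, mast cell, mesothelial or adipocyte markers was called. The part of these cells in the member levels was not tested.

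The probes behind the main results are 60 bases long. The first 30 bases are shown here, in lower case and 5′ to 3′ in the sense of the transcript, for the 7 members that passed under at least 14 of 17 alternatives, for Il1r2 and for the 2 probes of Il17rc, which are compared further on. Positions are those of the whole probe on mm9.
Il4i1, chr7:52096115-52096174, plus strand: ctcttcagggcagacagaccacctacacta
Il16, chr7:90791654-90791713, minus strand: aacagttctgtgagatgcaccctgccatga
Il17re, chr6:113420078-113420137, plus strand: gctgccaaagatgactaccaaggctcaacc
Il20rb, chr9:100358139-100358198, minus strand: tccctcaccccagggacttcattcctctgt
Il6ra, chr3:89674054-89674113, minus strand: aggaccaagtgcagtaacggtagcccaaac
Il2rg, chrX:98460130-98460189, minus strand: catcaatcctttgatggaacctcaaagtcc
Il34, chr8:113265835-113265894, minus strand: aagaacgacggggtgcctcctaggatccca
Il1r2, chr1:40180014-40180073, plus strand: ttgatccagtcacaagggaggatctgcata
Il17rc, brighter probe, chr6:113433073-113433132, plus strand: gcgaggaatgggacctgggaccctgcacta
Il17rc, dimmer probe, chr6:113432655-113432714, plus strand: ttccaccaccagcgacgccgtatcctgcag

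Detection came first, since most interleukins are made by few cells and only on demand. A probe is well above background when the scanner software sets that flag, and a gene without the flag has only an upper bound. Of the 83 members, 31 (37.3%) were well above background on all 6 arrays, 13 on some arrays and 39 on none. Over all gene names on the array, 54% were well above background on all 6. The receptors were seen more often than the ligands. Of the receptor chains, 19 of 38 were well above background on all arrays, against 10 of the 38 ligands and 1 of the 6 inhibitors.

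**Figure D1:**
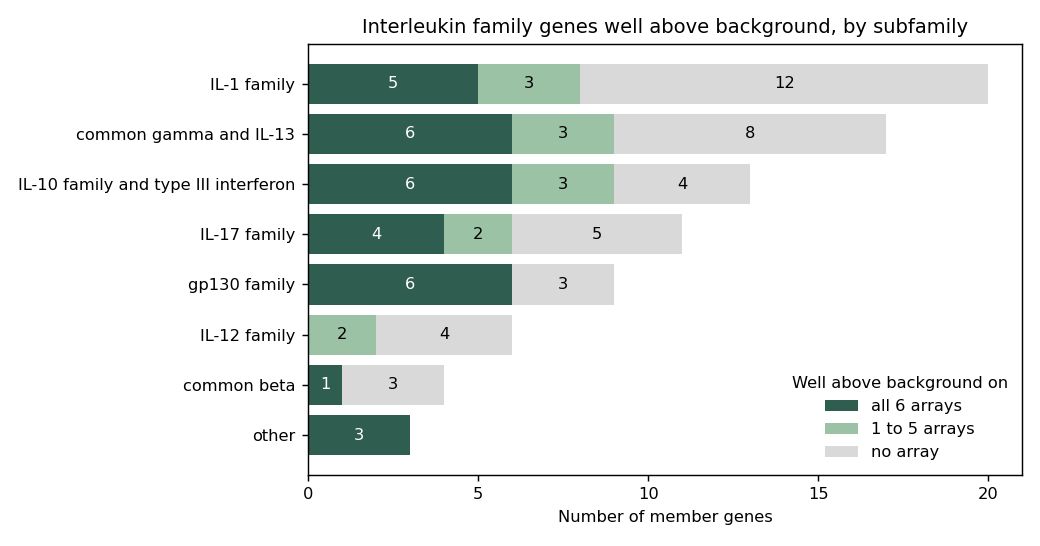
Number of member genes in each subfamily (horizontal axis) by the number of arrays on which the probe was well above background. In the gp130 family 6 of 9 genes were seen on all 6 arrays, in the IL-1 family 5 of 20, and in the IL-12 family none.

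The classical inflammatory and lymphocyte cytokines were among those seen on no array. They were Il1a, Il6, Il10, Il12a, Il12b, Il23a, Il31, Il17a, Il17b, Il17c and Il17f, and Il2, Il3, Il4, Il5, Il7, Il9, Il13 and Il21, cytokines that lymphocytes make or respond to. The remaining ligands on no array were Il20, Il1f6, Il1f9 and Il1f10. Among inhibitors, the receptor antagonists Il1rn and Il1f5 and the decoy receptor Il13ra2 were on no array either. The receptors on no array were Il1rap, Il1rapl1, Il1rapl2, Il1rl2, Il18r1, Il18rap, Il31ra, Il9r, Il5ra, Il20ra, Il22ra1, Il23r and Il17rb. Il1rap is the chain that both the IL-1 and the IL-33 receptor need, and all 3 of its probes were on no array.

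Ligands seen on all 6 arrays were Il1b, Il33, Il11, Il27, Il15, Il24, Il28b (Ifnl3 in newer annotation), Il17d, Il16 and Il34. Several members were seen on a single array, and these are given as values with no test. Il1f8 had a level of -1.01 on sham replicate 2 and between -6.86 and -6.43 on the other 5 arrays. Il25 had a level of -2.84 on tail-suspension replicate 2 and at most -5.89 elsewhere. Neither was flagged on a second array. Il19, Il22, Il22ra2 and Il7r were flagged on tail-suspension replicate 3 only, and Il2rb on sham replicate 1 only. Il12rb1 was flagged on 2 sham and 2 tail-suspension arrays.

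A member entered the test if all 3 arrays of either group were well above background. This held for 35 members: the 31 seen on all arrays, Il17ra through the tail-suspension arrays, and Il18, Il12rb2 and Il21r through the sham arrays. At an adjusted p under 0.05, from limma and adjusted by Benjamini-Hochberg over 28030 tested probes, 6 of the 35 were higher in tail-suspended mouse hearts and 7 were lower. Over all 20666 tested genes, read in the same way, 10.5% were higher and 9.8% lower. The 6 higher members were Il11, Il6ra, Il20rb, Il4ra, Il34 and Il17ra. The 7 lower members were Il4i1, Il17d, Il17re, Il2rg, Il16, Il15 and Il27ra. Il17ra entered the test only through the group in which it was high, so its call supports nothing, and with probes seen on all 6 arrays alone 5 members were higher and 7 lower, against 10.9% and 9.94% of the probes tested.

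The differences went both ways. Over the 31 members seen on all arrays, the median log2 difference was 0.0018, and it was -0.0076 over all genes seen on all arrays. The median absolute log2 difference was 0.38 for the members and 0.22 for all genes. The ranges of the 2 groups did not overlap for 19 of the 35 tested members, or 54.3%, against 44.8% of all tested genes. By the methods' t-test without adjustment, 9 members were higher and 9 lower, against 17.2% and 16.8% of all tested probes. After Benjamini-Hochberg adjustment 2 were higher and 4 lower, against 5.47% and 4.45% of probes.

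The position of the arrays on the slide limits these counts. With the slide row as a block, the contrast rests on tail-suspension replicate 1 against the 3 sham arrays, and that lone array is assumed to vary like the others. By it 1 member, Il17ra, was higher and 1, Il4i1, lower (limma), against 1.14% and 0.632% of all tested probes. Without the block these shares of all probes were 10.8% and 9.57%, so the loss of calls ran over the whole array.

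**Figure D2:**
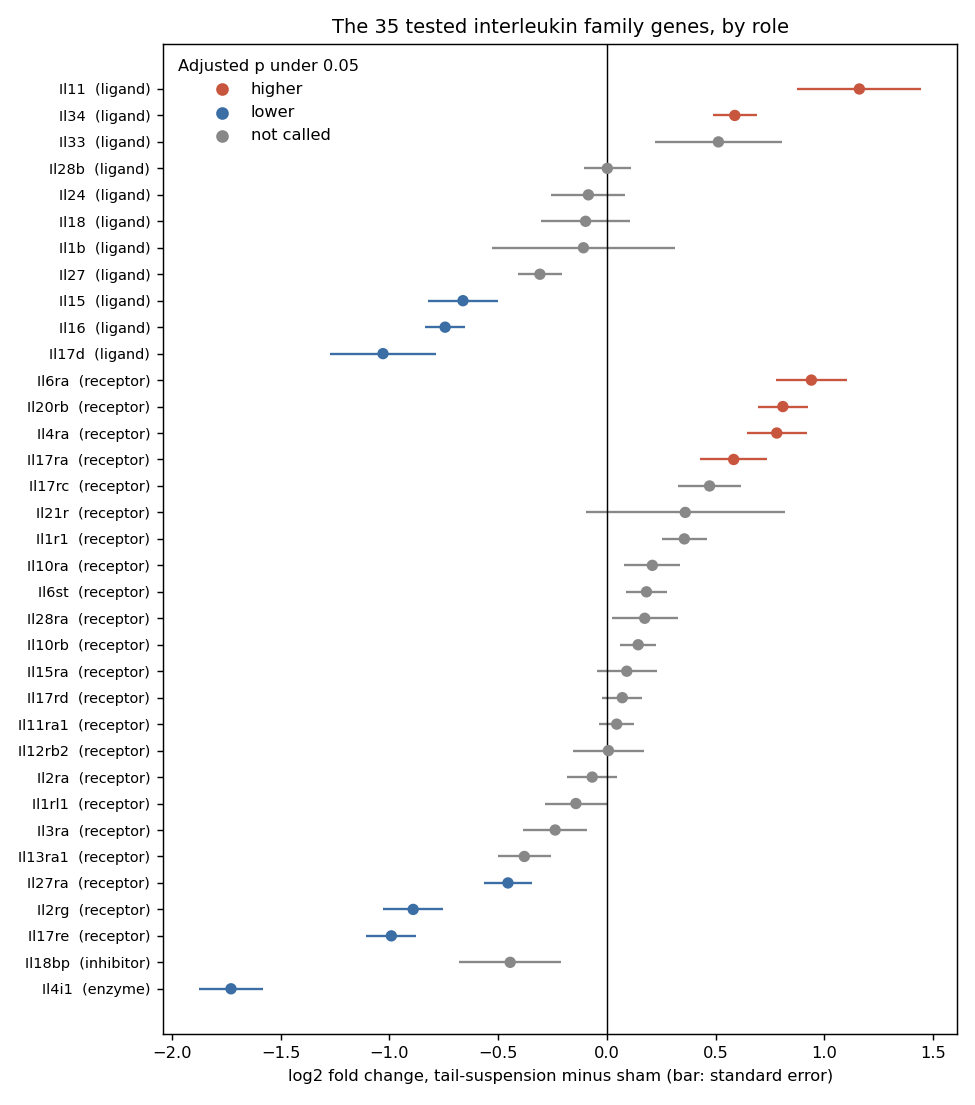
Log2 fold change, tail-suspension minus sham, with its standard error, for the 35 tested members, grouped by role. Values ran from -1.73 for Il4i1 to 1.16 for Il11, and for Il17ra, seen on no sham array, the plotted value is not a bound.

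The IL-6 branch showed its change at the ligand-binding receptor. Il6ra, the chain that binds IL-6, had levels of 1.33, 1.23 and 1.41 in sham and 2.03, 2.13 and 2.62 in tail-suspended mouse hearts. Every tail-suspension array was above every sham array, and tail-suspension replicate 3 was the highest. The mean rose from 1.32 ± 0.09 to 2.26 ± 0.31 (SD, n = 3 each), a log2 fold change of 0.94 with a standard error of 0.16 (adjusted p = 0.0141, limma), and it passed under 14 of 17 alternatives. Il6st, or gp130, the chain that passes the signal on, had levels of 3.90, 3.83 and 3.72 in sham and 3.98, 4.10 and 3.92 in tail-suspension. The groups did not overlap, but its log2 fold change of 0.18 did not pass (adjusted p = 0.209, limma). Il6 itself was not well above background on any array.

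Il11, a gp130 cytokine known for its action on fibroblasts, had levels of -4.16, -4.27 and -3.97 in sham and -2.93, -3.59 and -2.40 in tail-suspended mouse hearts. The sham values lay close to the lowest signals that were still well above background, which were -4.48 to -4.28 on those arrays. Il11 rose by 1.16 with a standard error of 0.29 (adjusted p = 0.0351, limma). Under the normexp background correction the log2 fold change was 0.23 (adjusted p = 0.303, limma), and Il11 passed under 8 of 17 alternatives. Its receptor chain Il11ra1 was at 5.95 ± 0.05 in sham and 6.00 ± 0.05 in tail-suspension (SD, n = 3 each). Its log2 fold change of 0.04 had a standard error of 0.08.

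Il27ra, which pairs with gp130 to bind IL-27, had levels of -2.93, -2.83 and -2.68 in sham and -3.11, -3.38 and -3.31 in tail-suspension. It fell by 0.46 on the log2 scale, with a standard error of 0.11 (adjusted p = 0.0352, limma), and passed under 6 of 17 alternatives. Il27, the p28 subunit of the ligand, had levels of -0.78, -0.75 and -0.64 in sham and -1.05, -0.90 and -1.15 in tail-suspension. Its difference of -0.31 did not pass (adjusted p = 0.0712, limma), although the groups did not overlap. Il27 passed under 2 of 17 alternatives. These were quantile normalization, at -0.34 (adjusted p = 0.0450, limma), and the authors' log2 values, at -0.29 (adjusted p = 0.0451, limma). Ebi3, the other subunit of IL-27, had a log2 fold change of -0.03.

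In the common gamma group the shared chain and 1 ligand were lower, and the IL-4 receptor was higher. Il2rg, the shared chain, had levels of -0.37, -0.38 and 0.0006 in sham and -1.06, -1.06 and -1.30 in tail-suspended mouse hearts. All tail-suspension arrays lay well below the lowest sham array. The mean was -0.25 ± 0.22 in sham and -1.14 ± 0.14 in tail-suspension (SD, n = 3 each), with a log2 fold change of -0.89 with a standard error of 0.14 (adjusted p = 0.0101, limma). Il15, the cytokine that sustains NK and memory T cells and that muscle also makes, had levels of 1.09, 1.00 and 0.91 in sham and 0.05, 0.65 and 0.31 in tail-suspension. The groups did not overlap, and tail-suspension replicate 2 was the nearest to sham. Il15 fell by 0.66 with a standard error of 0.16 (adjusted p = 0.0330, limma) and passed under 8 of 17 alternatives. Il15ra, which presents IL-15, was at 2.88 ± 0.13 in sham and 2.97 ± 0.22 in tail-suspension (SD, n = 3 each), with a log2 fold change of 0.09 with a standard error of 0.14.

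Il4ra, which binds IL-4 and, with Il13ra1, IL-13, had levels of -0.96, -0.81 and -0.76 in sham and -0.07, -0.30 and 0.18 in tail-suspended mouse hearts. The lowest tail-suspension array was above the highest sham array. Il4ra rose by 0.78 with a standard error of 0.14 (adjusted p = 0.0150, limma) and passed under 12 of 17 alternatives. Its second, dimmer probe lies nearer the start of the transcript and gave 0.44 with a standard error of 0.17 (adjusted p = 0.117, limma), so the probes had 1 direction and only the brighter passed. Il13ra1 was at -1.14 ± 0.08 in sham and -1.52 ± 0.20 in tail-suspension (SD, n = 3 each), and its log2 fold change of -0.38 did not pass (adjusted p = 0.0692, limma). Il2ra, the high-affinity IL-2 chain, was at -2.25 ± 0.13 in sham and -2.32 ± 0.14 in tail-suspension (SD, n = 3 each). Il21r was at -4.01 ± 0.27 in sham, where all 3 arrays were well above background, and had levels of -4.23, -4.20 and -2.53 in tail-suspension. The high value of tail-suspension replicate 3 gave a mean log2 fold change of 0.36, with a standard error of 0.46.

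The B cell marker Cd79a was lower, with a log2 fold change of -0.86 (adjusted p = 0.0196, limma). Cd79b, another B cell marker seen on all 6 arrays, had one of -0.49 that did not pass (adjusted p = 0.261, limma), and its groups overlapped. The summed T and NK cell level was 4.31 to 4.42 in sham and 3.62 to 4.11 in tail-suspension, with none of the 3 tested markers called. The part of these cells in the levels of Il2rg and Il15 was not tested.

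In the IL-17 group the ligand Il17d and the receptor chain Il17re were lower. Il17d had levels of 1.24, 1.53 and 1.56 in sham and 0.19, 0.97 and 0.09 in tail-suspended mouse hearts. Tail-suspension replicate 2 was the nearest to sham. Il17d fell by 1.03 with a standard error of 0.24 (adjusted p = 0.0316, limma) and passed under 9 of 17 alternatives. A second, dimmer probe of Il17d had levels of -1.86, -1.71 and -1.49 in sham and -2.37, -2.38 and -2.63 in tail-suspension. That probe was also lower, by a log2 fold change of -0.77 with a standard error of 0.13 (adjusted p = 0.0125, limma).

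Il17re, the chain that binds IL-17C, had levels of -2.33, -2.59 and -2.68 in sham and -3.60, -3.52 and -3.47 in tail-suspended mouse hearts. The 3 tail-suspension arrays lay close together and well below the sham arrays. The mean was -2.53 ± 0.18 in sham and -3.53 ± 0.07 in tail-suspension (SD, n = 3 each). The log2 fold change was -0.99 with a standard error of 0.11 (adjusted p = 0.00448, limma), and it passed under 16 of 17 alternatives. Il17c, its ligand, was seen on no array.

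Il17rc, which binds IL-17A and IL-17F together with Il17ra, is the neighbour of Il17re on chromosome 6. The nearest probes of the pair are 12517 bases apart on mm9. Its brighter probe had levels of 1.97, 2.05 and 2.04 in sham and 2.63, 2.19 and 2.67 in tail-suspension, with a log2 fold change of 0.47 that did not pass (adjusted p = 0.0607, limma). Its dimmer probe had levels of -1.66, -1.81 and -1.67 in sham and -0.65, -1.24 and -0.995 in tail-suspension and rose by 0.75 (standard error 0.16, adjusted p = 0.0228, limma). Both probes put every tail-suspension array above every sham array, and the call for Il17rc therefore rested on the choice of probe. With the mean of both probes it passed, at 0.61 (adjusted p = 0.0299, limma). Without tail-suspension replicate 2, the lowest of that group on both probes, the brighter probe passed as well, at 0.63 (adjusted p = 0.0114, limma). Leaving out the array nearest to sham must widen the difference, so that pass supports nothing. The brighter probe was not called in the main fit, and Il17rc passed under 4 of 17 alternatives.

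Il17ra, the chain shared by most IL-17 receptors, was well above background on all 3 tail-suspension arrays and on no sham array. Its levels were -4.45, -4.54 and -4.31 in sham and -3.53, -4.02 and -4.00 in tail-suspension, and only a bound can be given. By its bound Il17ra was 1.43-fold higher. That value is not a strict minimum. On sham replicate 1 the unflagged level of Il17ra lay above the lowest flagged signal (-4.4534 against -4.4839). Il17ra could enter the test only by being high in tail-suspension, so its adjusted p of 0.0426 (limma) is a description. Under the normexp background correction its log2 fold change was -0.07, so the direction turned with the background correction. Il17rd was at 0.25 ± 0.07 in sham and 0.32 ± 0.10 in tail-suspension (SD, n = 3 each).

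In the IL-10 group Il20rb was the called member. This chain serves the receptors of IL-19, IL-20 and IL-24. Its levels were -2.03, -2.30 and -2.13 in sham and -1.20, -1.49 and -1.34 in tail-suspended mouse hearts. The groups were far apart relative to their spread, with means of -2.15 ± 0.14 and -1.34 ± 0.14 (SD, n = 3 each). Il20rb rose by 0.81 with a standard error of 0.12 (adjusted p = 0.00813, limma), and it passed under 16 of 17 alternatives. Its partner chains Il20ra and Il22ra1 were seen on no array. Of its ligands, Il24 was at -3.49 ± 0.33 in sham and -3.57 ± 0.06 in tail-suspension (SD, n = 3 each), with a log2 fold change of -0.09 and a standard error of 0.17.

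The other IL-10 receptors differed little. Il10rb, the chain shared with IL-22 and the type III interferons, was at 3.47 ± 0.08 in sham and 3.61 ± 0.02 in tail-suspension (SD, n = 3 each). The log2 fold change was 0.14 (standard error 0.08) for Il10rb, 0.21 (standard error 0.13) for Il10ra and 0.17 (standard error 0.15) for Il28ra, listed as Ifnlr1 in newer annotation. Il28b, a type III interferon, had a log2 fold change of 0.0018 with a standard error of 0.11. None of these passed the threshold. In the IL-12 group Il12rb2 was at -3.89 ± 0.10 in sham and -3.88 ± 0.31 in tail-suspension (SD, n = 3 each).

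In the IL-1 group none of the 6 tested members passed. Il1r1, the signalling IL-1 receptor, had levels of 0.50, 0.48 and 0.56 in sham and 0.92, 0.69 and 0.99 in tail-suspended mouse hearts. The groups did not overlap, and its log2 fold change of 0.36 lay just outside the threshold (adjusted p = 0.0556, limma). Without tail-suspension replicate 2 it passed, at 0.44 (adjusted p = 0.0266, limma). That array was the nearest to sham, so leaving it out must widen the difference, and the pass supports nothing. Il1r1 passed under 2 of 17 alternatives. Il1b had levels of -2.63, -2.41 and -3.19 in sham and -2.36, -2.38 and -3.81 in tail-suspension, with a log2 fold change of -0.11 and a standard error of 0.42. Il33 had levels of -0.87, -1.83 and -1.82 in sham and -0.72, -1.34 and -0.92 in tail-suspension, with a log2 fold change of 0.51 with a standard error of 0.29. The spread between mice was large for both, and the groups overlapped. Il1rl1, the receptor of IL-33, was at -2.03 ± 0.10 in sham and -2.17 ± 0.26 in tail-suspension (SD, n = 3 each), on 1 of its 3 probes, and the others were seen on no array. The transcript form that each of these probes reads was not determined. Il18 had a log2 fold change of -0.10 (standard error 0.21), and Il18bp, the secreted inhibitor of IL-18, one of -0.44 (standard error 0.23, adjusted p = 0.211, limma).

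Il1r2, a decoy receptor that binds IL-1 without signalling, was seen in tail-suspension only. Its levels were -6.70, -6.66 and -6.59 in sham, none flagged as well above background, and -1.92, -4.80 and -2.82 in tail-suspension. It was well above background on tail-suspension replicates 1 and 3 and on no sham array. Its bound was 2.29-fold higher. Tail-suspension replicate 2 entered that bound at its own unflagged level, so the value is not a strict minimum. It was outside the test, since replicate 2 was not well above background, and without the filter on dim probes its adjusted p was 0.0583 (limma).

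**Figure D3:**
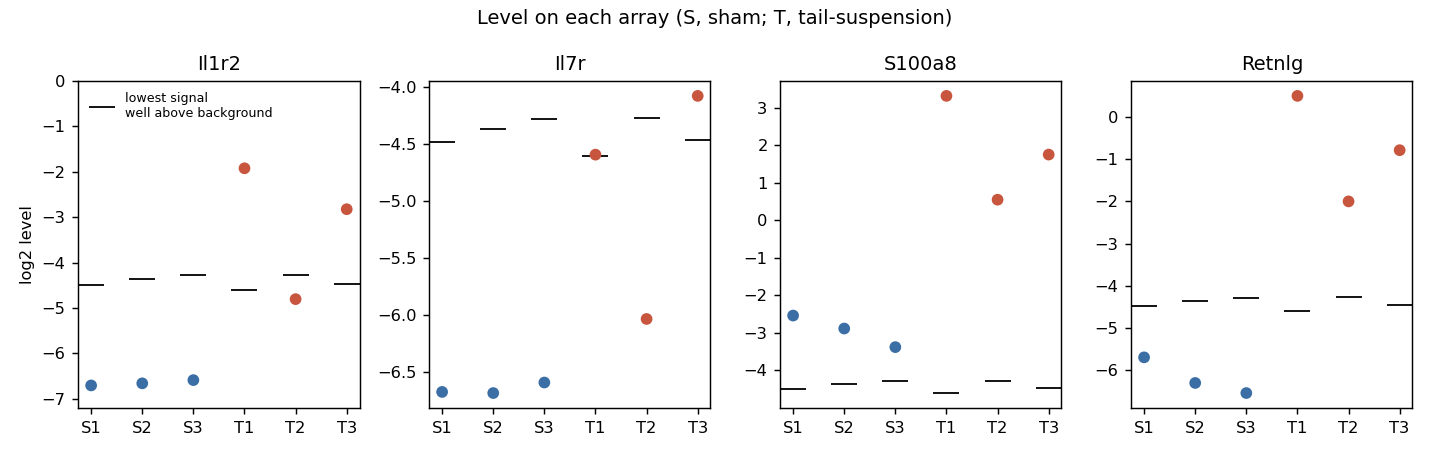
Log2 level on each array of the interleukin receptors Il1r2 and Il7r and of the neutrophil markers S100a8 and Retnlg, each on its own axis, with black dashes at the lowest signal well above background on that array. Il1r2, S100a8 and Retnlg were highest on tail-suspension replicate 1 and lowest of that group on replicate 2.

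Neutrophils are known for abundant Il1r2. Of 7 listed neutrophil markers, 6 were on the array under their listed names and 4 were seen on all 6 arrays. Of these 4, S100a8 and S100a9 were higher, and Camp and Csf3r did not pass (adjusted p = 0.0654 and 0.0926, limma). Retnlg was seen on the 3 tail-suspension arrays and on no sham array, 12.3-fold higher by its bound. S100a8 had levels of -2.54, -2.88 and -3.38 in sham and 3.31, 0.55 and 1.75 in tail-suspended mouse hearts, with the same order of the 3 tail-suspension arrays as Il1r2. The summed level of the markers was 143 to 171 in sham and 207 to 236 in tail-suspension, most of it from Csf3r, which was highest on tail-suspension replicate 2 (7.53, 7.71 and 7.57). The part of neutrophils in the level of Il1r2 was not tested. Il7r, a receptor of lymphocytes, had levels of -4.59, -6.04 and -4.08 in tail-suspension and between -6.69 and -6.60 in sham.

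Of the 35 tested members, Il4i1 had the largest difference. It encodes a secreted L-amino acid oxidase that antigen-presenting cells and B cells are known to make. Its levels were -1.79, -1.71 and -1.29 in sham and -3.40, -3.23 and -3.34 in tail-suspended mouse hearts. The 3 tail-suspension arrays lay within a narrow range, far below the lowest sham array. The mean was -1.59 ± 0.27 in sham and -3.32 ± 0.09 in tail-suspension (SD, n = 3 each). This was a log2 fold change of -1.73 with a standard error of 0.15, or 3.31-fold lower (adjusted p = 0.00231, limma). Il4i1 passed under all 17 alternatives, with log2 fold changes between -1.83 and -0.99. In the RefSeq annotation of GRCm38.p6 the gene overlaps Il4i1b and Tbc1d17, and the share of the signal from either was not tested.

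Il16, a chemoattractant for cells bearing CD4, had levels of 0.12, 0.27 and 0.14 in sham and -0.53, -0.51 and -0.66 in tail-suspended mouse hearts. The values were tight within each group. Il16 fell by 0.74 with a standard error of 0.09 (adjusted p = 0.00537, limma), and it passed under 16 of 17 alternatives. Cd4 had a log2 fold change of -0.27 that did not pass (adjusted p = 0.0718, limma).

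Il34, a second ligand of the macrophage receptor Csf1r, had levels of -0.20, -0.30 and -0.04 in sham and 0.48, 0.34 and 0.40 in tail-suspended mouse hearts. Every tail-suspension array was above every sham array. Il34 rose by 0.59 with a standard error of 0.10 (adjusted p = 0.0134, limma) and passed under 14 of 17 alternatives. Csf1r itself was at 4.40 ± 0.21 in sham and 4.53 ± 0.27 in tail-suspension (SD, n = 3 each). Of the macrophage markers, 5 were seen on all 6 arrays and none of these was called. Cd163 was seen on the 3 tail-suspension arrays and on no sham array, 3.39-fold higher by its bound. The summed macrophage level was 27.3 to 36.3 in sham and 30.3 to 47.7 in tail-suspension, and the ranges overlapped.

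**Figure D4:**
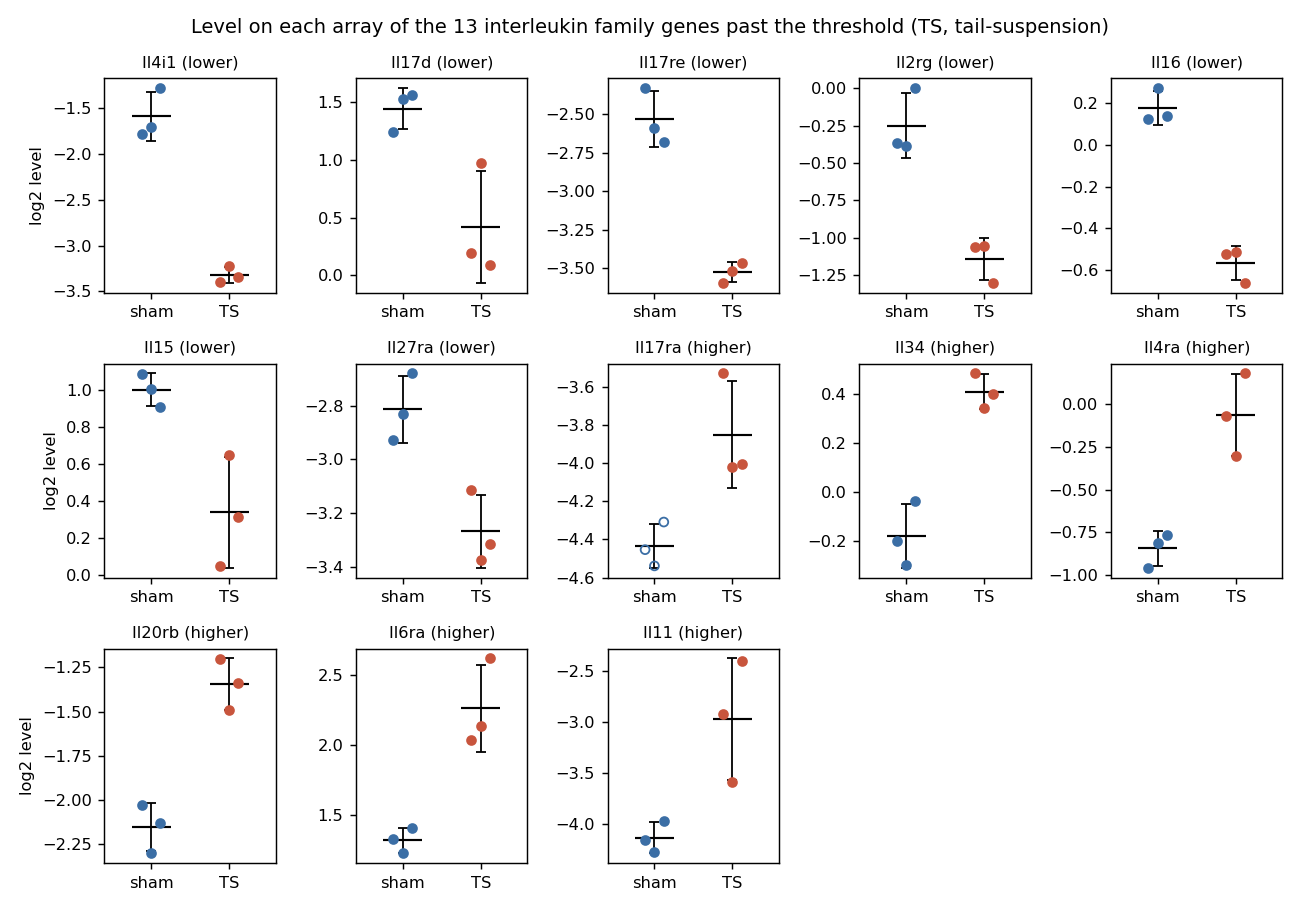
Log2 level on each array of the 13 called members, each on its own vertical axis, with the group mean and SD in black; open circles are groups in which the probe was well above background on no array. In no panel did the groups overlap, and the tail-suspension values were most spread for Il11 (SD 0.60) and Il17d (SD 0.48).

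Signalling genes downstream of the receptors were read from a list of 60 kinases, STAT factors, adaptors, inhibitors and receptor partners. All 60 were on the array and 55 were tested. Of these, 11 were higher and 4 lower in tail-suspended mouse hearts, and the groups did not overlap for 31 of 55. These were 20% higher, 7.27% lower and 56.4% without overlap, against 10.5%, 9.8% and 44.8% of all tested genes. The median log2 difference of the tested genes was 0.14, against -0.0076 over all tested genes.

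Among receptor chains, Csf2rb and Csf2rb2, the shared beta chain and the IL-3 beta chain of the mouse, rose by 1.23 and 1.57 (standard errors 0.17 and 0.28, adjusted p = 0.00694 and 0.0156, limma). Csf2rb had levels of -1.48, -1.68 and -1.56 in sham and -0.05, -0.68 and -0.30 in tail-suspension. Csf2rb2 had levels of -1.51, -1.73 and -1.61 in sham and 0.39, -0.73 and 0.22 in tail-suspension. The genes are near-identical copies, so their probes may share signal. Il3ra, the ligand-binding partner, was at 0.85 ± 0.21 in sham and 0.61 ± 0.18 in tail-suspension (SD, n = 3 each), and its log2 fold change of -0.24 did not pass.

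Osmr, the oncostatin M receptor and a partner of gp130, had levels of 1.56, 1.52 and 1.81 in sham and 3.06, 2.81 and 3.08 in tail-suspended mouse hearts. The spread within each group was small beside the gap, and Osmr rose by 1.36 with a standard error of 0.12 (adjusted p = 0.00255, limma). Lifr, the LIF receptor, rose by 0.34 (adjusted p = 0.0364, limma). The ligands Osm and Lif were seen on no array.

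Of the feedback inhibitors of STAT signalling, Socs3 was higher and Socs1 lower. Socs3, which binds gp130, had levels of 0.76, 0.42 and 0.48 in sham and 2.32, 1.84 and 1.97 in tail-suspension and rose by 1.49 with a standard error of 0.16 (adjusted p = 0.00338, limma). Socs1 had levels of -1.47, -1.78 and -1.65 in sham and -2.47, -2.09 and -2.73 in tail-suspension and fell by 0.80 (adjusted p = 0.0272, limma). The groups overlapped for neither. Pias1 rose by 0.49. Jak3, the kinase that binds Il2rg, rose by 0.87 with a standard error of 0.11 (adjusted p = 0.00520, limma), opposite in direction to Il2rg. Stat5a, which acts after the IL-2 and IL-3 receptors, fell by 0.71. Stat3 was at 4.26 ± 0.25 in sham and 4.68 ± 0.31 in tail-suspension (SD, n = 3 each), and its groups overlapped.

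In the pathway of the IL-1 and IL-17 receptors, the inhibitors Nfkbia and Irak3 and the modulator Nfkbiz were higher. Nfkbia, the inhibitor of NF-kappa-B, rose by 1.13. Irak3, an IL-1 receptor kinase without activity that dampens the pathway, had levels of -0.97, -1.08 and -0.85 in sham and 0.12, 0.04 and 0.05 in tail-suspension and rose by 1.04 (standard error 0.09, adjusted p = 0.00255, limma). Nfkbiz, which modulates NF-kappa-B and is induced by IL-1 and IL-17, had levels of -2.92, -2.73 and -2.71 in sham and -1.89, -1.86 and -1.83 in tail-suspension and rose by 0.93 (adjusted p = 0.00311, limma). Casp4 rose by 0.62. The kinase Irak1 and the inhibitor Tnfaip3 fell by 0.43 and 0.40. With the slide row as a block, 5 of the list were higher and none lower (limma), against 1.14% and 0.632% of all tested probes. At an unadjusted p under 0.05 (limma), 13 were higher and 4 lower, against 11.6% and 9.69% of all tested probes.

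**Figure D5:**
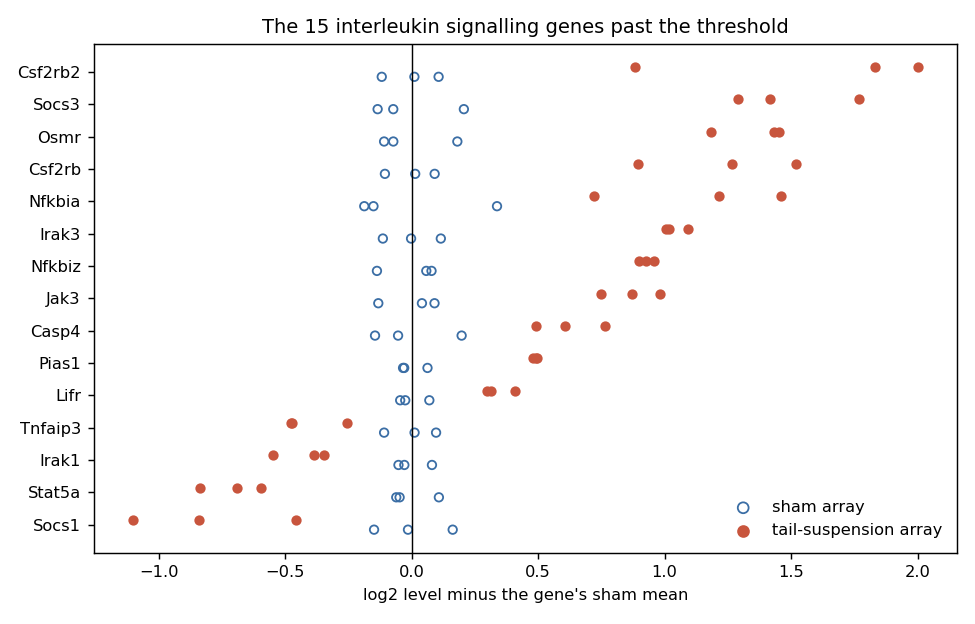
Log2 level on each array, minus the gene's own sham mean, for the 15 called genes of the signalling list. Open circles are sham arrays and filled circles tail-suspension arrays, and Csf2rb2 showed the widest spread among tail-suspension arrays (SD 0.60).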

How the data were processed

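Hearts of 3 sham and 3 tail-suspended mice were profiled on 1-colour arrays. For each array the authors deposited the scanner's table, in which Agilent Feature Extraction 10.7.1.1 gave every spot a mean, a background and a processed intensity. The authors also deposited log2 values of these arrays in 1 table, whose normalization is not given in the sources used here. Gene names and mm9 coordinates are those of the array design. All 83 members matched RefSeq (GRCm38.p6), and 2 have newer symbols.

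Processed intensities were put on the log2 scale, and the 75th percentile of the array was subtracted. Spots that were controls or carried an outlier flag were dropped, and repeat spots of a probe were averaged. A probe was taken as well above background if 50% or more of its spots were flagged so, which held for 50.9% to 53.4% of probes per array. No spot was saturated. A probe was tested if all 3 arrays of either group passed this, with limma 3.58.1 in R 4.3.3 (no covariates, Benjamini-Hochberg, threshold 0.05). Precision is limited by the 6 arrays: the smallest two-sided p of an exact permutation test of 3 against 3 is 0.1.

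For a bound, the dim group took on each array its own signal or, if higher, the lowest signal flagged on that array. Its mean was set against that of the bright group, whose arrays kept their own signal, flagged or not. Unflagged signals can lie above the lowest flagged one, so a bound is not a strict minimum. The methods' t-test was applied to these levels too. Members, lists and tests were chosen with earlier results of these data known. Named are all tested members, members by detection, members with a bound of at least 2-fold, and the 12 largest changes of the signalling list. Irak1, Tnfaip3, Lifr, Stat3, Ebi3, Osm and Lif were named outside that rule, after their values were seen. Lists of marker genes served to describe other cell types, and 1 result of the B cell list is not reported here. The steps were tested on simulated data. The alternatives were another background correction, other normalizations, filters and tests, the replicate number and the slide row as blocks, the mean of a gene's probes, and each array left out.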

Additional observations from a re-analysis of the deposited data

How the results depend on the processing

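The member counts (6 higher, 7 lower) and signalling counts (11 and 4) moved by more than 1.5 times under some settings. Without the filter on dim probes, which doubles the probes tested, they were 2, 4, 7 and 1. The shares of all tested probes higher and lower moved too, from 10.8% and 9.57% to 1.87% and 1.42%. Under the adjusted version of the methods' t-test the counts were 2, 4, 8 and 2, against 5.47% and 4.45% of all tested probes. With the slide row as a block they were 1, 1, 5 and 0, against 1.14% and 0.632%. With each array left out, the counts lay between 1 and 9, 4 and 6, 6 and 12, and 1 and 5. Higher members were fewest without sham replicate 2, against 3.42% higher and 2.57% lower of all tested probes. They were most without tail-suspension replicate 2, against 10.2% and 9.01%. Those 9 included Il17ra and Il1r2, and Il1r2 entered the test only with that array left out. Both entered only through tail-suspension arrays, so their calls support nothing. With the replicate number as a block the counts were 5, 5, 9 and 1, against 6.11% and 5.01% of all tested probes. Same-numbered arrays did not deviate together (correlations -0.02, -0.0176 and 0.0495), which cannot show whether the mice were handled in numbered pairs. Under normexp the counts were 5, 6, 12 and 4, against 8.84% and 9.4% of all tested probes. Of the 13 called members, Il17ra alone changed sign, to -0.073 under normexp. Some uncalled members changed sign as well. Il28b was -0.15 under normexp, -0.058 under quantile normalization, -0.047 on the authors' values and -0.12 with the row block, and Il12rb2 was -0.19, -0.076 and -0.068 under the first 3 of these. Il11ra1 was -0.027 under quantile normalization and -0.0030 on the authors' values, and Il21r was -0.0086 under normexp. With the row block Il18 was 0.084, Il1b 0.38, Il1rl1 0.16 and Il21r -0.21. With each array left out, Il12rb2 ran from -0.10 to 0.18, Il15ra from -0.01 to 0.21, Il18 from -0.24 to 0.13, Il1b from -0.35 to 0.37, Il21r from -0.20 to 0.65, Il24 from -0.27 to 0.048, Il28b from -0.077 to 0.065 and Il2ra from -0.15 to 0.0069. The cause was not tested. Dim probes limit Il11, Il17ra and Il1r2.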
